A study of Mus musculus with 6 samples.

Results

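Replication licensing is the placing of the replicative helicase on DNA before S phase. The replication licensing genes here encode the helicase ring and its loaders, an inhibitor of loading and a factor that acts after loading. They were taken here as the 10 rows of the deposited expression table with the names Mcm2, Mcm3, Mcm4, Mcm5, Mcm6, Mcm7, Mcm10, Cdc6, Cdt1 and Gmnn, out of 30315 genes in all. RNA-Seq was performed on primary renal tubular epithelial cells (TECs) isolated from the kidneys of C57BL/6 mice. All cells were subjected to hypoxia/reoxygenation (H/R), with 6 h at 1.0% oxygen in medium without glucose and then 18 h of reoxygenation in complete medium. At 12 h before H/R they were transfected with an siRNA against Sox9 (siSox9, 3 libraries) or with the control siRNA (siNC, 3 libraries). SOX9 is a transcription factor of injured and regenerating tubules, and the study used the knockdown to ask how it promotes proliferation. No library from cells without H/R is part of the series, and 1 siRNA against Sox9 was used. No source says that the replicates came from separate mice or cultures, so the p-values measure the spread between these libraries only.

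In licensing, the origin recognition complex (ORC) marks origins and recruits CDC6 and CDT1, which load rings of the subunits MCM2 to MCM7 around DNA during G1 phase. Geminin, encoded by Gmnn, binds CDT1 in S and G2 phase and blocks a new round of loading. At S phase entry the ring is joined by CDC45 and the GINS complex to form the active CMG helicase, and MCM10 takes part in its activation. In the kidney most tubular cells are quiescent and re-enter the cycle after injury.

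Sox9, the target of the siRNA, had 8.93, 8.61 and 9.07 FPKM in siSox9 replicates 1, 2 and 3 and 25.7, 26.5 and 25.6 FPKM in siNC replicates 1, 2 and 3. FPKM are reads per kilobase of exons, scaled to the depth of the library, so that levels of different genes can be set side by side. Such a comparison depends on the exon length used for each gene. The FPKM values of the 6 libraries imply totals of 23893195 to 25725732 reads as the depth used for scaling. What these totals count is not stated in the sources used here. Over genes whose reads could be recovered, the reads summed to 17201471 to 18608316 a library. The epithelial label was checked with 14 tubular markers, of which 9 had a mean of at least 1 FPKM, with Krt8, Krt18, Cdh1, Epcam and Cdh16 the highest. Cdh16 was higher with siSox9, at 130 against 101 FPKM (log2 fold change 0.36, limma's adjusted p = 0.000307). The list summed to 3820 to 3970 FPKM with siSox9 and 3650 to 3850 FPKM with siNC. The segment markers Slc34a1, Aqp1, Umod, Slc12a1 and Aqp2 were under 1 FPKM. Of 6 leukocyte markers 5 had at least 1 FPKM, and the list summed to 138 to 155 FPKM with siSox9 and 135 to 139 FPKM with siNC. Of its genes Lyz2 was higher with siSox9 (log2 fold change 0.21, limma's adjusted p = 0.0175). With siSox9 and siNC the fibroblast list summed to 6.45 to 7.95 and 7.99 to 9.09 FPKM. The endothelial list summed to 2.91 to 3.1 and 3.22 to 4.12 FPKM and the podocyte list to 0.5 to 0.712 and 0.748 to 0.956 FPKM. These 3 sums did not overlap between the groups, as 46.3% of single genes tested did not. They rest on low values: Col1a1 and Cdh5 alone reached a mean of 1 FPKM, with limma's adjusted p = 0.118 and 0.449. Pdgfra, Dcn, Tek and Kdr had higher means with siSox9, and the other genes above 0 had lower means. Nphs1, which defines podocytes, was listed at 0 in every library. The part of these other cells in the results was not tested, and in bulk RNA fewer cells of a type and less RNA per cell cannot be told apart.

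All 10 licensing genes were lower after Sox9 knockdown. Each was past the threshold (adjusted p under 0.05 over all genes tested, limma on log2(FPKM + 1)), with adjusted p from 0.000221 for Mcm5 to 0.0112 for Mcm10. Of the 12009 genes tested, 17.6% were lower past the same threshold and 12.8% higher, 30.4% in either direction. With each library centred on its median, these shares were 14.7% and 16.3%, so the split of calls depends on the scaling, while all 10 licensing genes stayed lower. Mean levels after siSox9 were between 59.1% of the siNC mean for Gmnn and 81.1% for Cdt1. For the 10 genes the log2 fold changes had a median of -0.34, and over all genes tested of -0.01. The siSox9 libraries lay below the siNC libraries without overlap in each of the 10 genes, which 26.1% of the genes tested also showed (46.3% did not overlap in either direction). In an exact permutation test of 1 gene, 3 libraries against 3 cannot give a two-sided p under 0.1, and each of the 10 genes reached this value.

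**Figure D1:**
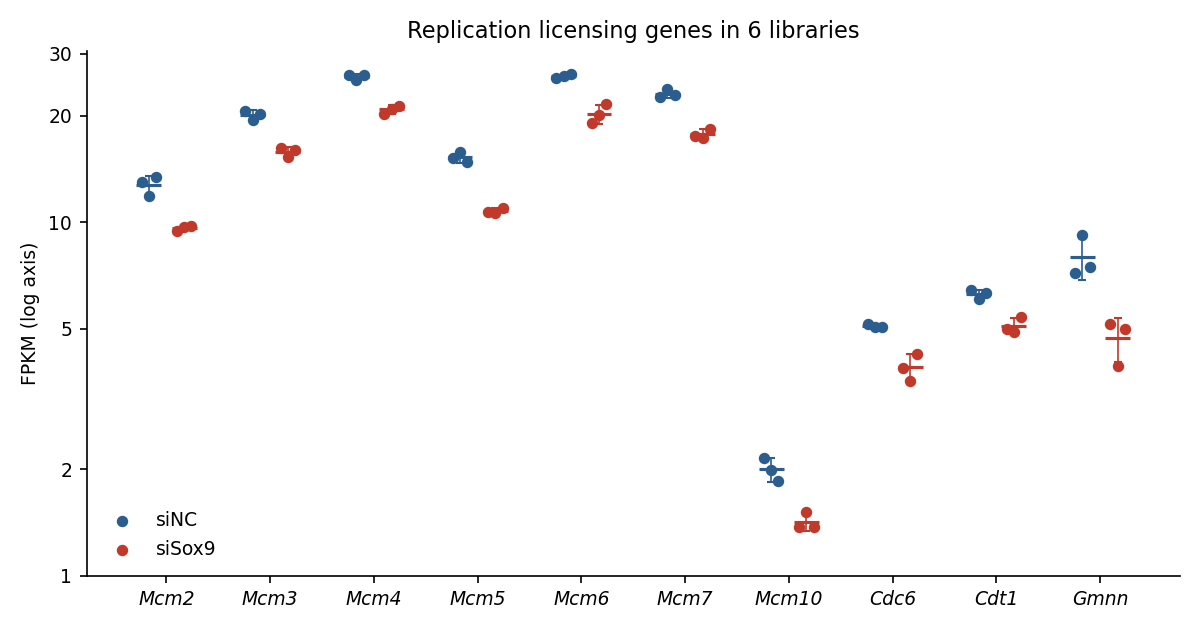
FPKM of the 10 licensing genes (log axis) in each of the 3 siNC and 3 siSox9 libraries; points are libraries, and the line and bar give the mean and SD. In every gene the 3 siSox9 points lie below the 3 siNC points, and Gmnn has the widest spread.

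RefSeq promoter windows were set beside the levels because the licensing genes are textbook targets of the E2F factors of the G1/S transition. The windows run from 250 bases before to 50 bases after each annotated start (GRCm38.p6), and 8 of the 10 genes had one, Mcm7 with a pair of starts; Mcm4 and Gmnn had no entry. An E2F-type motif, counted as TTTCCCGC, TTTCGCGC, TTTGCCGC or TTTGGCGC on either strand, was found in windows of 6 of these 8 genes, namely Mcm3, Mcm5, Mcm6, Mcm7, Cdc6 and Cdt1. It was present in 2.26% of all 32851 windows. The windows of Mcm2 and Mcm10 hold none of these letters. The CHR element TTTGAA, a motif of genes expressed late in the cycle, was found in Mcm2 alone and in 17.9% of all windows, and the CCAAT box in 6 of the 8 genes and 37.4% of all windows.

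The matches of the 6 genes are printed 5′ to 3′ on the strand of the gene, with the letters of an E2F-type match on either strand in capitals. For Mcm5 (chr8:75109329-75109508, + strand) and Mcm6 (chr1:128359706-128359885, - strand) the 180 bases directly before the start are shown. Both have matches before the RefSeq start, and their deposited gene positions do not begin upstream of it. Each holds a pair of matches on opposite strands that overlap. For Mcm3 (chr1:20820276-20820305, - strand), Mcm7 (chr5:138172031-138172060, - strand), Cdc6 (chr11:98908001-98908030, + strand) and Cdt1 (chr8:122568035-122568064, + strand), 30 bases at the first match are shown.
Mcm5: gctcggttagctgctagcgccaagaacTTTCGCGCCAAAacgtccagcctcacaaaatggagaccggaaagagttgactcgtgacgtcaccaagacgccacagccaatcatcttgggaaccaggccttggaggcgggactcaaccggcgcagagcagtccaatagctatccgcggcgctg
Mcm6: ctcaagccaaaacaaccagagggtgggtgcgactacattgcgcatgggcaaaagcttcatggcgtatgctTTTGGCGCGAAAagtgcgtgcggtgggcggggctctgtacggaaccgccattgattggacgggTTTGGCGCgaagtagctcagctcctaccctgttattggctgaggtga
Mcm3: taaacttccgtgGCGGGAAAacttgggaag
Mcm7: taatttcgaaccGCGGGAAAcagggtgtcc
Cdc6: ggccggtggagaGCGGGAAAtcgcctgggg
Cdt1: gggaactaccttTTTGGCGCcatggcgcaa
In Mcm5 the matches span bases -153 to -142 from the start, and in Mcm6 bases -110 to -99, with a further match at -47 to -40. The match of Cdc6 lies at -138 to -131 and the first of Mcm7 at -165 to -158, while those of Mcm3 and Cdt1 lie after the start. For Cdc6 and Mcm7 the deposited gene positions begin upstream of these RefSeq starts. They begin at 98907801 against 98908151 for Cdc6 and at 138172422 against 138171883 for Mcm7. By the deposited positions both matches therefore lie within the gene, after its start. In Mcm7 a second match at bases 16 to 23 shares its last base with a CCAAT box. A match is a run of letters only, and binding of a factor was not measured here. The genes with a match had 70.5% of the siNC level (Mcm5) to 81.1% (Cdt1) left, and Mcm2 and Mcm10 without one had 75.5% and 70.8%.

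**Figure D2:**
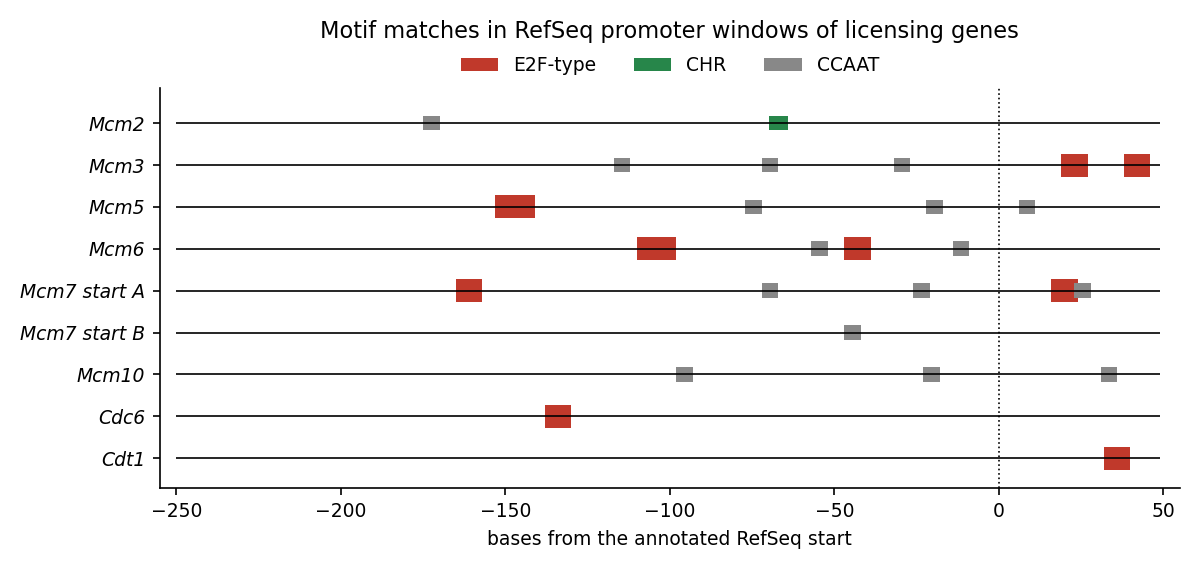
Positions of E2F-type, CHR and CCAAT letters in the RefSeq promoter windows of the licensing genes, in bases from the annotated start (dotted line); Mcm7 has a pair of annotated starts, A upstream of B. E2F-type letters (red) appear in 6 of 8 genes, and Mcm2 and Mcm10 have none.

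Among the ring subunits, Mcm5 (chromosome 8 from 75109569 to 75128439 in the deposited table) had the largest fall. It had 10.7, 10.6 and 11.0 FPKM in siSox9 replicates 1, 2 and 3 and 15.2, 15.8 and 14.8 FPKM in siNC replicates 1, 2 and 3. The libraries of each group lay close together, and the gap between the groups was many times that spread. The means were 10.7 ± 0.214 and 15.2 ± 0.511 FPKM (SD, n = 3 each), and the log2 fold change was -0.47 (95% interval -0.55 to -0.38, limma's adjusted p = 0.000221). The promoter of Mcm5 is one of those with overlapping E2F-type letters printed above.

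Mcm2 (chromosome 6 from 88883474 to 88898780) had the lowest FPKM of the ring subunits in every library. It had 9.47, 9.69 and 9.76 FPKM with siSox9 and 13.0, 11.9 and 13.4 FPKM with siNC, in replicates 1, 2 and 3. The siNC libraries varied more than the siSox9 libraries, and the lowest of them still lay above all siSox9 libraries. Its log2 fold change was -0.37 (95% interval -0.48 to -0.26, limma's adjusted p = 0.00138). The rank of Mcm2 depends on the exon length used, which was 6956 bases for Mcm2 and 3589 to 4666 bases for the other subunits. In reads, Mcm2 had 1695, 1711 and 1622 in siSox9 replicates 1, 2 and 3. This was above Mcm3 (1560, 1461 and 1436) and Mcm5 (1099, 1070 and 1047), and the same order held with siNC.

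Mcm4 and Mcm6 had the highest FPKM of the ring subunits. Mcm4 (chromosome 16 from 15623897 to 15637400) had 20.3, 20.9 and 21.4 FPKM in siSox9 replicates 1, 2 and 3 against 26.1, 25.3 and 26.2 FPKM with siNC. Mcm6 (chromosome 1 from 128331590 to 128359664) had 19.1, 20.1 and 21.6 FPKM against 25.6, 26.0 and 26.3 FPKM. The groups were apart in both, and Mcm6 spread more among the siSox9 libraries (SD 1.25 FPKM) than among the siNC libraries (SD 0.343 FPKM). Mcm4 had a log2 fold change of -0.30 and Mcm6 of -0.34 (limma's adjusted p = 0.000858 and 0.00182).

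Mcm7 (chromosome 5 from 138164583 to 138172422) had 17.5, 17.3 and 18.4 FPKM with siSox9 and 22.6, 23.8 and 23.0 FPKM with siNC, in replicates 1, 2 and 3. Mcm3 (chromosome 1 from 20802968 to 20820312) had 16.2, 15.3 and 16.0 FPKM against 20.7, 19.5 and 20.3 FPKM. In both genes the groups were separated by several FPKM while libraries of a group lay close together. The log2 fold changes were -0.36 for Mcm7 and -0.33 for Mcm3 (limma's adjusted p = 0.000529 and 0.000808). Mcm7 shares 12.6% of its exon bases with Ap4m1 and Cops6 on the opposite strand and with the microRNA genes Mir25 and Mir93 that it hosts. Since no source used here says whether reads were counted by strand, its value is less certain than those of the other 9 genes, whose exons overlap no other gene in GENCODE M21.

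The 6 ring subunits kept nearly the same order of FPKM in every library. Mcm7, Mcm3, Mcm5 and Mcm2 followed in this order below Mcm4 and Mcm6, whose libraries overlapped within each group. The highest subunit was 1.96 to 2.18 times the lowest with siNC and 2.14 to 2.21 times with siSox9. The ratio of Mcm7 to Mcm2 was 1.85, 1.79 and 1.88 in siSox9 replicates 1, 2 and 3 and 1.74, 1.99 and 1.72 in siNC replicates 1, 2 and 3. These ratios overlapped, and their mean differed by 0.02 on the log2 scale (exact two-sided permutation test p = 0.8, adjusted p = 1 over 4 ratios). The subunits with the largest and the smallest fall, Mcm5 and Mcm4, differed in this respect: Mcm5 was 0.527, 0.505 and 0.512 of Mcm4 with siSox9 and 0.582, 0.623 and 0.564 with siNC, without overlap. This pair was chosen for its difference and was not tested.

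Cdc6 and Cdt1, the loaders of the ring, were expressed at lower levels than any ring subunit. Cdc6 (chromosome 11 from 98907801 to 98923940) had 3.88, 3.55 and 4.23 FPKM with siSox9 and 5.17, 5.05 and 5.06 FPKM with siNC, in replicates 1, 2 and 3. The siNC libraries differed by less than counting error alone would give, and the siSox9 libraries varied by 8.74% (SD relative to the mean) around a lower level. Its log2 fold change was -0.32 (95% interval -0.45 to -0.19, limma's adjusted p = 0.00588). Cdt1 (chromosome 8 from 122568015 to 122573554) had 4.98, 4.88 and 5.4 FPKM against 6.43, 6.07 and 6.31 FPKM. Relative to its level, the fall was the smallest of the 10 licensing genes, and the groups did not overlap. The log2 fold change of Cdt1 was -0.26 (95% interval -0.37 to -0.15, limma's adjusted p = 0.0064).

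Of the ring subunits, Mcm2 was the one set against Cdc6 within each library. The ratio of Cdc6 to Mcm2 was 0.41, 0.367 and 0.434 with siSox9 and 0.399, 0.424 and 0.378 with siNC, in replicates 1, 2 and 3. The groups overlapped over most of their range, with a mean log2 difference of 0.01 (exact two-sided permutation test p = 1, also when adjusted over 4 ratios). A difference smaller than this spread was not detectable with 3 libraries a group.

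Gmnn, the inhibitor of CDT1, had the largest fall of the licensing genes. Gmnn (chromosome 13 from 24751845 to 24761923) had 5.17, 3.92 and 5.0 FPKM in siSox9 replicates 1, 2 and 3 and 7.2, 9.19 and 7.47 FPKM in siNC replicates 1, 2 and 3. Replicate 2 was the extreme library in both groups, lowest with siSox9 and highest with siNC. The means were 4.7 ± 0.677 and 7.95 ± 1.08 FPKM (SD, n = 3 each), and the log2 fold change was -0.65 (95% interval -0.91 to -0.39, limma's adjusted p = 0.00497). It rested on the fewest reads of the 10 genes, 195, 146 and 175 with siSox9 and 262, 325 and 272 with siNC. The spread of 14.4% with siSox9 and 13.5% with siNC was wider than the 7.62% and 5.91% that counting error alone gives at these reads.

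The fall of Cdt1 was set against that of its inhibitor within each library. The ratio of Cdt1 to Gmnn was 0.962, 1.24 and 1.08 in siSox9 replicates 1, 2 and 3 and 0.892, 0.66 and 0.844 in siNC replicates 1, 2 and 3. All siSox9 libraries lay above all siNC libraries, with the closest pair at 0.962 and 0.892. The mean difference was 0.46 on the log2 scale (two-sided p = 0.1 by exact permutation, which is as low as 3 against 3 can reach, adjusted p = 0.4 over 4 ratios). It was between 0.33 and 0.55 when each library was left out in turn. Relative to Mcm2, Gmnn was 0.546, 0.405 and 0.512 with siSox9 and 0.556, 0.77 and 0.558 with siNC. These groups were separated by little and overlapped once 1 FPKM was added to both genes, and this ratio was chosen after its values were seen and not tested. Its log2 difference of -0.36 was -0.20 without siNC replicate 2 and -0.23 without siSox9 replicate 2.

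Mcm10, which acts after loading, had the lowest FPKM of the 10 genes. Mcm10 (chromosome 2 from 4989714 to 5012791) had 1.37, 1.51 and 1.37 FPKM with siSox9 and 2.16, 1.99 and 1.85 FPKM with siNC, in replicates 1, 2 and 3. The groups were closest between 1.51 and 1.85 FPKM and did not overlap. Its log2 fold change on the log2(FPKM + 1) scale was -0.31 (95% interval -0.46 to -0.16, limma's adjusted p = 0.0112). This scale understates the change of a gene near 1 FPKM: without the added 1 its log2 fold change was -0.50, and that of Mcm5 -0.51. The ratio of Mcm10 to Mcm2 was 0.145, 0.155 and 0.14 with siSox9 and 0.167, 0.167 and 0.138 with siNC. The groups overlapped, with a mean log2 difference of -0.09 (exact two-sided permutation test p = 0.4, adjusted p = 0.8 over 4 ratios).

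**Figure D3:**
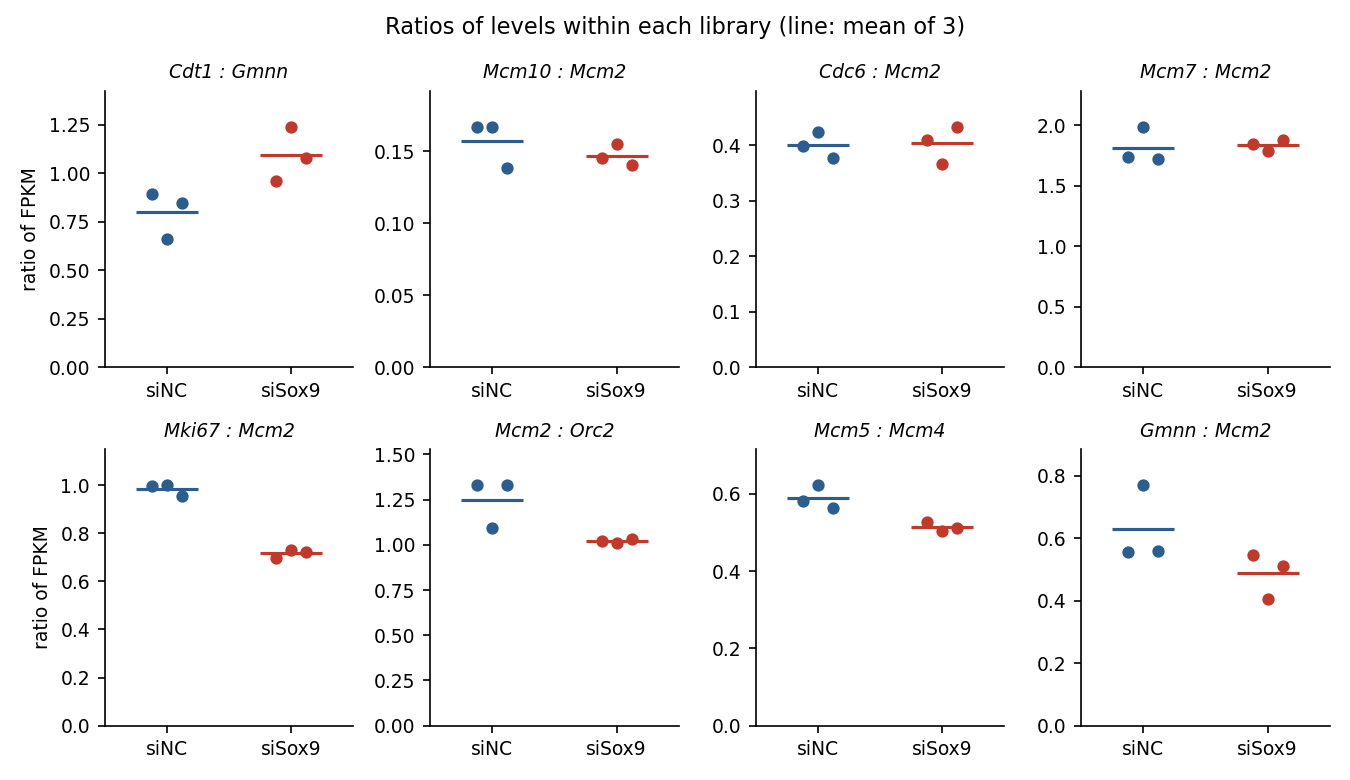
Ratios of FPKM within each library for 8 pairs of genes; points are libraries, lines the mean of 3, and each axis starts at 0. Cdt1 to Gmnn is higher in all siSox9 libraries (exact permutation test, adjusted p = 0.4 over 4 ratios). Mki67 to Mcm2, Mcm2 to Orc2, Mcm5 to Mcm4 and Gmnn to Mcm2 are lower, and these were chosen after their values were seen and not tested. The other 3 ratios overlap between the groups. Gmnn to Mcm2 overlaps too once 1 FPKM is added to both genes.

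Over all 10 genes the order of FPKM with siNC was Mcm6, Mcm4, Mcm7, Mcm3, Mcm5, Mcm2, Gmnn, Cdt1, Cdc6 and Mcm10. Of the neighbours in this order, Mcm6 and Mcm4 alone had overlapping libraries. With siSox9 the order was the same except that Mcm4 stood above Mcm6 and Cdt1 above Gmnn. The pairs Mcm4 and Mcm6, Cdt1 and Gmnn, and Gmnn and Cdc6 overlapped there.

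**Figure D4:**
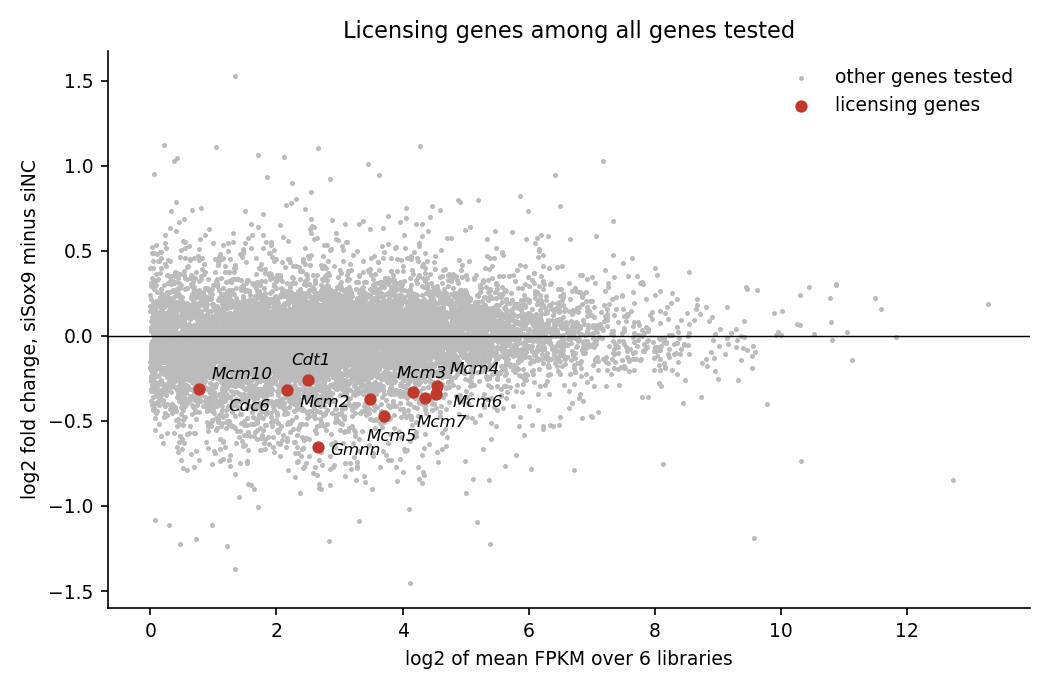
Log2 fold change of siSox9 minus siNC on the log2(FPKM + 1) scale against the log2 of the mean FPKM for the 12009 genes tested; red points are the licensing genes. The 10 red points lie between -0.65 and -0.26, inside the cloud of all genes and below its median of -0.01.

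Genes of origin recognition were set beside the licensing genes. Like the licensing genes, this list and the gene lists that follow were chosen with earlier results of these data known. Their counts beside the share of all genes are therefore not a test. Of 9 genes for origin recognition and loading helpers, 1 fell past the threshold and none rose, against 17.6% and 12.8% of all genes tested. The median log2 fold change of the 9 genes was -0.10. With 9 genes, 1 call lies near the share of all genes and is not read as a result about them. The gene that fell was Mcmbp, whose product binds MCM subunits outside the loaded ring, with a log2 fold change of -0.26 (limma's adjusted p = 0.0108). None of the 6 ORC genes passed, and whether they differ from the licensing genes was not tested. Orc6 had a log2 fold change of -0.14 (95% interval -0.30 to 0.02), Orc1 of -0.12 (95% interval -0.29 to 0.05) and Orc2 of -0.10 (95% interval -0.21 to 0.00), and the intervals of Orc6 and Orc1 include the -0.26 of Cdt1. Lrwd1, which helps ORC bind chromatin, had one of -0.12 (95% interval -0.22 to -0.03, limma's adjusted p = 0.0609). The ratio of Mcm2 to Orc2 was 1.02, 1.01 and 1.03 with siSox9 and 1.33, 1.09 and 1.33 with siNC, in replicates 1, 2 and 3, so that siNC replicate 2 lay nearest to siSox9. This ratio was picked with its values known and has no test.

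**Figure D5:**
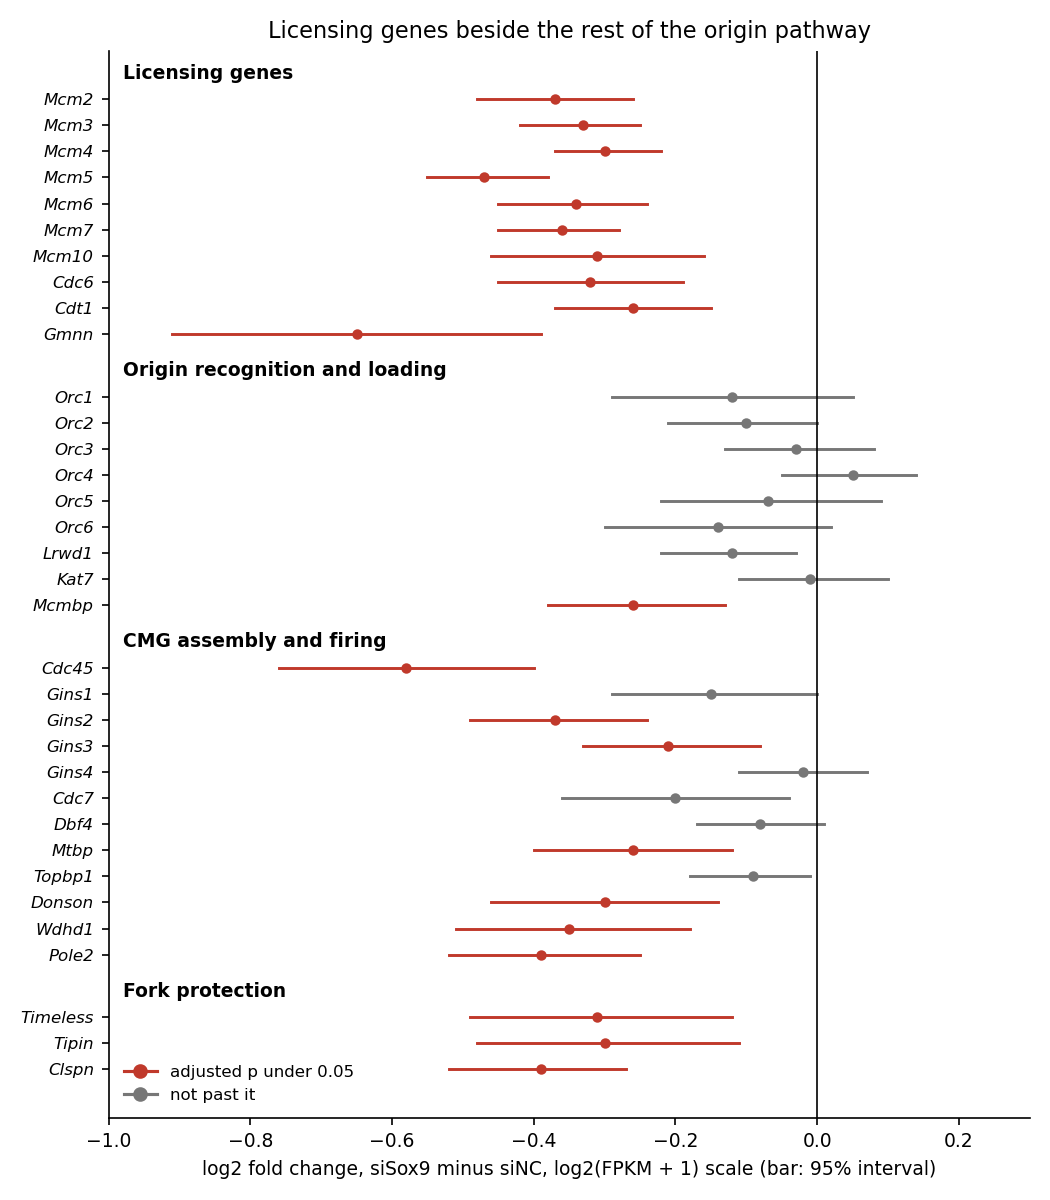
Log2 fold change of siSox9 minus siNC on the log2(FPKM + 1) scale, with 95% intervals, for the licensing genes and the tested genes of the rest of the origin pathway; red marks an adjusted p under 0.05. All licensing genes are red, and of the ORC and loading genes Mcmbp alone is. Of all genes tested, 17.6% were lower past this value.

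Genes that turn the loaded ring into a moving helicase were lower in part. Of 14 genes for CMG assembly and origin firing 12 were tested, 7 fell and 0 rose, where 17.6% of all genes tested fell and 12.8% rose, with a median log2 fold change of -0.23. Cdc45, a subunit of the CMG helicase, had 3.81 ± 0.408 FPKM with siSox9 and 6.19 ± 0.48 FPKM with siNC (SD, n = 3 each) and fell by 0.58 on the log2 scale (limma's adjusted p = 0.00179). Pole2, a subunit of the leading strand polymerase, fell by 0.39, and Gins2 by 0.37. Wdhd1, which links the helicase to lagging strand synthesis, fell by 0.35 and Donson, a factor of CMG assembly, by 0.30. The 2 genes not tested were under the minimum of 1 FPKM. All 3 fork protection genes fell, Clspn by 0.39, Timeless by 0.31 and Tipin by 0.30 (limma's adjusted p = 0.00201, 0.024 and 0.03). These values are on the log2(FPKM + 1) scale, which understates changes near 1 FPKM. Without the added 1 the log2 fold change was -0.70 for Cdc45, -0.60 for Pole2, -0.54 for Gins2, -0.52 for Wdhd1 and -0.40 for Donson. For the fork protection genes it was -0.54 for Clspn, -0.49 for Timeless and -0.33 for Tipin.

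Of 15 genes that control the turnover of CDT1, CDC6 and geminin, 7 fell and 1 rose, beside 17.6% and 12.8% of all genes tested. Cdc20, an activator of the anaphase-promoting complex that degrades geminin, had 10.4 ± 0.351 FPKM with siSox9 and 19.6 ± 1.44 FPKM with siNC (SD, n = 3 each), and fell by 0.86 on the log2 scale (limma's adjusted p = 0.000108). Ccnf, whose product targets CDC6, fell by 0.70, and Fbxo5, which inhibits the anaphase-promoting complex, by 0.52. Cul1 and Skp2, parts of an SCF ligase for CDT1, fell by 0.36 and 0.34. Without the added 1 FPKM the log2 fold changes were -0.92 for Cdc20, -0.83 for Ccnf, -0.61 for Fbxo5, -0.51 for Skp2 and -0.37 for Cul1. Ddb1, the adaptor of the CUL4 ligase that degrades CDT1 in S phase, was higher, with 283.2 ± 2.69 against 255.3 ± 7.17 FPKM and a log2 fold change of 0.15 (limma's adjusted p = 0.0115). Cdc20, Ccnf and Fbxo5 are themselves expressed mainly in dividing cells.

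Of 17 genes of G1/S control, 10 fell and 0 rose, with a median log2 fold change of -0.21; over all genes tested 17.6% fell and 12.8% rose. Ccna2, the cyclin of S and G2 phase, fell by 0.75 on the log2 scale. Ccne1, a cyclin of S phase entry, fell by 0.64. The repressors E2f8 and E2f7 fell by 0.54 and 0.43, and Rbl1, a pocket protein, by 0.40. Without the added 1 FPKM the log2 fold changes were -0.84 for Ccna2, -0.76 for E2f8, -0.74 for Ccne1, -0.67 for E2f7 and -0.48 for Rbl1. The adjusted p of these 5 genes was between 8.85e-05 and 0.00514 in limma.

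All 5 markers of dividing cells, Mki67, Ccnb1, Cdk1, Top2a and Pcna, fell past the threshold. Of all genes tested 17.6% fell and 12.8% rose. The median log2 fold change of the markers was -0.65, where the licensing genes had a median of -0.34. Pcna, the sliding clamp of the replication fork, had a log2 fold change of -0.35, near the licensing genes, and Mki67 of -0.78. Their adjusted p in limma was 0.00243 and 8.27e-05. The ratio of Mki67 to Mcm2 was 0.698, 0.729 and 0.72 in siSox9 replicates 1, 2 and 3 and 0.995, 1.0 and 0.953 in siNC replicates 1, 2 and 3. The siSox9 libraries were all lower and close together, with a mean log2 difference of -0.46. This ratio, too, was formed after its genes' values were known, so no test is given.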

How the data were processed

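RNA-Seq was performed by the authors on 6 libraries on an Illumina platform, and the authors deposited 1 table of FPKM with a column for each library, so replicates were not pooled. The submitters' processing notes name Bowtie2 2.2.3, HISAT2 2.1.0, TopHat2 and the build mm9; the counting tool and annotation are not given in the sources used here. The positions in the table are those of GRCm38: 93.4% of the 30246 genes found in GENCODE M21 have the same position there. Columns named for the siRNA other than the control were taken as siSox9, the other siRNA in the titles.

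Reads were recovered from FPKM and GENCODE M21 exon lengths; 27907 genes gave whole reads in all 6 libraries, within 0.02 reads, the 10 licensing genes among them, with 146 to 3046 reads a library. siSox9 was compared with siNC by limma 3.58.1 in R 4.3.3 (lmFit, eBayes with a trend, no replicate block, since the study used an unpaired test) on log2(FPKM + 1), for the 12009 genes whose mean reached 1 FPKM, with Benjamini-Hochberg adjustment and a threshold of 0.05. Ratios within libraries were compared by exact permutation with scipy 1.17.1 in Python 3.11.15. limma and the read recovery were tested on simulated data. Promoter sequences are from RefSeq.

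The genes named are the licensing genes, Sox9 and, from each pathway list, at most 5 genes with the largest change and any called gene of the opposite direction. The members and lists were chosen with earlier results of these data known. Alternatives were the replicate block, limma voom on the recovered reads, leaving out each library, rescaling (to TPM, by quantiles or by each library's median), a pseudocount of 0.1, and a low-value limit of 5 FPKM or of none. Intervals for counting cover counting error only.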

Additional observations from a re-analysis of the deposited data

How the results depend on the processing

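Each of the 10 licensing genes stayed lower and past the threshold under every alternative in which it was tested, with log2 fold changes from -0.76 to -0.55 for Gmnn, -0.50 to -0.25 for Mcm10 and -0.30 to -0.22 for Cdt1, and a largest adjusted p in limma of 0.0431, for Mcm10. Cdc6 and Mcm10 drop out at a minimum of 5 FPKM, which left 8 genes, all lower. The count of genes past the threshold was 3650 and, with each library left out in turn, ran from 2424 without siSox9 replicate 2 to 3654 without siNC replicate 1. Values centred on each library's median gave 14.7% of genes lower and 16.3% higher; the median of all genes stayed between -0.017 and 0.012 under all settings. Blocking on the replicate number left 3262 genes past the threshold, all 10 licensing genes among them, so the block changed no call of a licensing gene. Same-numbered libraries had correlations of -0.0504 to 0.0649 between their deviations from the group means. With 3 libraries a group, these values cannot tell whether same-numbered libraries share a culture, a mouse or a day. Under the block the log2 difference of Cdt1 to Gmnn was 0.46 (exact permutation p = 0.25, the smallest that 3 pairs allow). The ratio of Mcm10 to Mcm2 changed from -0.09 to 0.06 with 1 FPKM added to both genes, and neither value was called. With the same 1 FPKM added, the ratio of Gmnn to Mcm2 changed from -0.36 to -0.28 and its groups overlapped. With each library left out in turn, the ratios to Mcm2 ran from -0.18 to -0.05 for Mcm10, -0.04 to 0.08 for Cdc6 and -0.02 to 0.09 for Mcm7 on the log2 scale, so the last 2 have no fixed direction.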

Other observations

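Relatives of the licensing genes outside licensing were mostly too low to test. Of 5 such genes 2 had a mean of at least 1 FPKM. Mcm8, a helicase subunit of homologous recombination, fell by 0.30 on the log2(FPKM + 1) scale, or by 0.46 without the added 1 (limma's adjusted p = 0.0374 for the former), with 1.71 ± 0.0665 FPKM with siSox9 and 2.35 ± 0.392 FPKM with siNC (SD, n = 3 each). Its partner Mcm9 had 1.25 ± 0.0319 and 1.13 ± 0.0582 FPKM, a log2 fold change of 0.07 (95% interval -0.07 to 0.22) that did not pass. Mcidas, a geminin relative of multiciliated cells, was listed at 0 in every library.

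The tested genes outside the lists whose level over the 6 libraries was most like the mean pattern of the licensing genes were Mpc1-ps (Pearson's r 0.9988), Angptl2 (0.9987), Ccdc50, Lims2 and Nceh1 (0.9979 each), out of 7437 genes whose mean reached 5 FPKM. Of these, 573 had r over 0.95, and the libraries form groups of 3 that differ in many genes, so that such likeness is common here.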
